A study of Mus musculus with 4 samples.

Results

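The 200 spots described here are the mesenchyme spots of 2 sections of mouse embryo, 100 at E16.5 and 100 at E13.5 (days of embryonic development), out of 6808 embryo spots kept and 7435 spots kept in the whole series. A Visium slide carries a hexagonal grid of barcoded spots, and each spot captures RNA from whatever cells lie above it, so every spot holds a mixture of cells. In each section on its own, spots over tissue with at least 500 UMIs (unique molecular identifiers, which count each captured RNA molecule once) were chosen by their measured counts of 4 transcription factor genes of mesenchyme, Prrx1, Prrx2, Twist1 and Twist2. The score was the mean over these genes of log(1 + UMIs per 10000), and the 100 highest spots of a section were taken. "Mesenchyme spots" is a name for that choice, and the remaining 3488 spots at E16.5 and 3120 at E13.5 are called other spots.

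Both embryos were wild type and untreated, no transgene or Cre allele being named, and both tissues were fresh frozen and cut at 8 µm. The sample titles speak of esophagus while the tissue label is whole mouse embryo, and the sections also hold heart, brain, cartilage and muscle. The labels do not name the animals, and 1 section stands for each stage. No test could therefore be made: the values below are sums over the spots of 1 section, their 95% intervals cover counting error only, and the E16.5 over E13.5 comparison is of 2 sections. A further 2 sections, of newborn esophagus (P0), were not analysed here.

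Mesenchyme is the loosely packed embryonic tissue that gives rise to dermis, fascia, tendon, cartilage and bone. In the trunk it comes from mesoderm, and in most of the face it comes from the cranial neural crest, whose cells do not use the Hox code that patterns the trunk. Mesenchyme beneath an epithelium exchanges Hedgehog, Wnt, FGF and BMP signals with it, and as connective tissue matures its fibroblasts build a matrix of collagen fibrils and small proteoglycans.

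The E16.5 section gave 3588 of 3593 spots and 105835664 UMIs, and the E13.5 section 3220 of 3228 spots and 98645152 UMIs. The mesenchyme spots held 2199093 UMIs at E16.5 (4996 to 45455 per spot, median 21556, against a median of 26995 in other spots) and 2412492 at E13.5 (10851 to 42301, median 23830, against 29648). Mitochondrial genes took 2.62% of UMIs in mesenchyme spots and 4.37% in other spots at E16.5, and 1.09% against 2.55% at E13.5. The kept spots of the sections share 2532 barcodes, which on this platform are position codes and do not mark shared cells.

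The score was lower at E16.5. Its highest value was 1.32 at E16.5 and 1.68 at E13.5, and its median over the 100 spots was 0.891 and 1.31. The last spot taken and the first left out scored 0.7883 and 0.7872 at E16.5, and 1.2121 and 1.2108 at E13.5, so the limit cuts a continuous range. At E13.5 434 spots scored at or above the E16.5 limit, so the groups of the 2 stages are equal in number but not in score. As a description of the choice, Prrx1 stood at 231 UMIs per 1000000 (CPM) in mesenchyme spots and 44.9 in other spots at E16.5, and at 650.4 and 83.3 CPM at E13.5. Prrx2 stood at 82.3 and 13.7 CPM at E16.5 and at 197 and 29.2 CPM at E13.5. Twist1 stood at 193 and 26.0 CPM at E16.5 and at 435 and 58.2 CPM at E13.5. Twist2 stood at 244 and 14.6 CPM at E16.5 and at 172 and 23.9 CPM at E13.5. These 4 genes were left out of everything that follows.

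The mesenchyme spots lay along the upper edge of the tissue at E16.5, with others scattered inside, and in connected patches in the lower part of the grid at E13.5. At E16.5 39.0% of them touched an edge of the tissue, against 19.1% of other spots, and at E13.5 16% did, against 13%. Of the neighbours of a mesenchyme spot, 25.6% were themselves mesenchyme spots at E16.5 and 40.1% at E13.5, where 2.79% and 3.11% of all spots were. Touching spots formed 51 groups at E16.5, of which 2 had 5 or more spots (22 and 20), and 42 spots stood alone. At E13.5 they formed 21 groups, of which 8 had 5 or more spots and held 81 of the 100, and 9 stood alone.

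**Figure D1:**
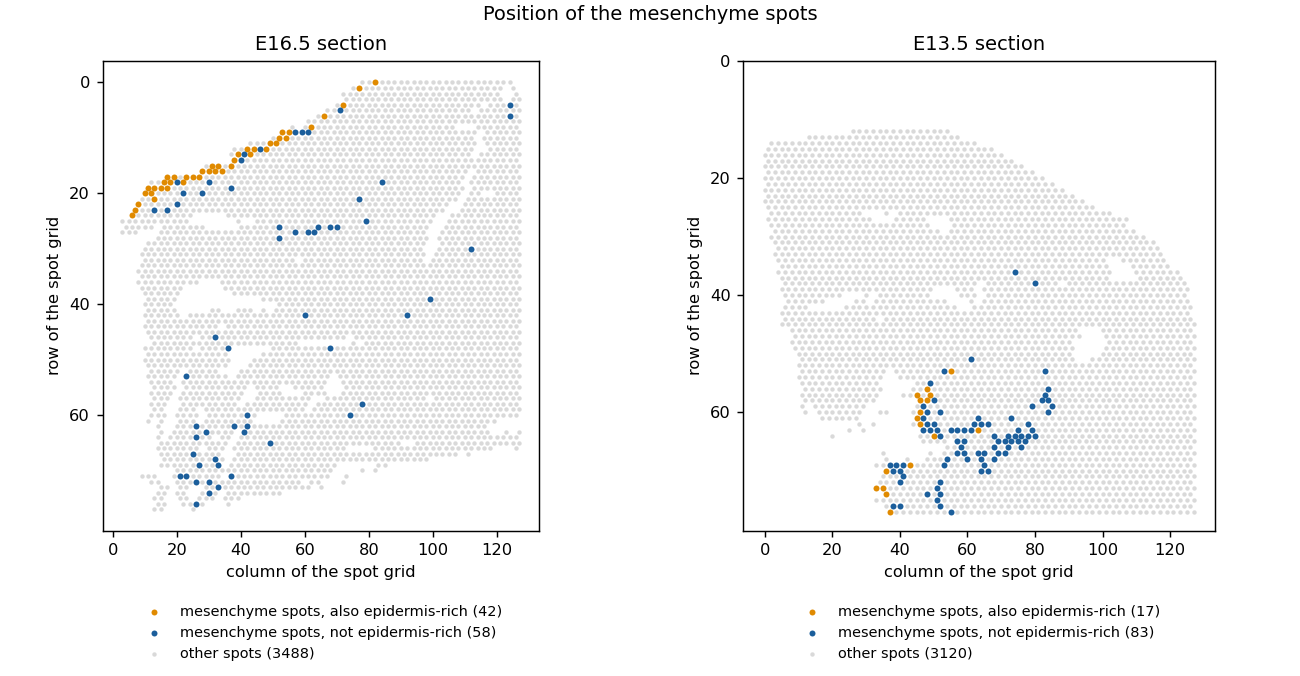
Each point is a spot of the E16.5 section (left) or the E13.5 section (right), at its row and column on the slide's grid. Mesenchyme spots that are also among the 100 highest spots for epidermis genes are orange (42 at E16.5, 17 at E13.5), the remaining mesenchyme spots are blue and other spots are grey. At E16.5 the orange spots follow the upper tissue edge, and at E13.5 nearly all mesenchyme spots lie in the lower part of the grid.

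The mesenchyme spots of the stages sat beside different tissues. Ranking all spots by fixed marker lists of other tissues, 42 of the 100 mesenchyme spots at E16.5 were also among the 100 highest spots for epidermis genes, against 17 at E13.5. For bone genes the overlap was 6 spots at E16.5 and 19 at E13.5, for macrophage genes 7 and 1, and for epithelium genes 1 and 5. No mesenchyme spot of either stage was among the 100 highest for cartilage, skeletal muscle, smooth muscle, neuron, neural progenitor, blood, heart or lung genes. Within 2 grid steps of an epidermis-rich spot lay 61.0% of mesenchyme spots and 5.62% of other spots at E16.5, and 63.0% and 12.6% at E13.5. Within 2 steps of a bone-rich spot lay 19% and 11.4% at E16.5, and 50% and 7.72% at E13.5. The organs in the sections differ too: 4 liver markers summed to 9.42 CPM in other spots at E16.5 and to 1543 CPM in other spots at E13.5. The stage, the plane of section and the body region of the mesenchyme spots therefore cannot be told apart.

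The name was then checked on 6 genes of connective tissue cells that the score does not use: Pdgfra, a growth factor receptor of fibroblasts, the collagen genes Col1a1, Col1a2 and Col3a1, and the proteoglycan genes Dcn and Lum. At E16.5 all 6 were at least 2-fold higher in mesenchyme spots than in other spots (2.5-fold for Pdgfra to 4.85-fold for Lum). At E13.5 Pdgfra alone was (2.56-fold), the collagens and Lum lay between 1.60-fold and 1.99-fold, and Dcn was lower (0.694-fold). The smooth-muscle-rich spots at E13.5 had more Col1a1 (2314 CPM) and Dcn (620.4 CPM) than the mesenchyme spots. They had less Pdgfra (126 CPM) and Lum (311 CPM). Spots were also ranked by these 6 genes, as for the other tissues above. Of the mesenchyme spots, 36 at E16.5 and 6 at E13.5 were among the highest spots of that ranking. Within 2 grid steps of such a spot lay 76% of mesenchyme spots and 17.6% of other spots at E16.5. At E13.5 the shares were 13% and 18.9%, so mesenchyme spots lay near such spots less often than other spots did. At E13.5 these genes thus bear out the name only in part, and no finer cell type name is given to the mesenchyme spots.

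The promoters of 4 genes are printed first because they stand for the epidermis and mast cell results at E16.5 given below: Lor and Flg, which encode loricrin and filaggrin of the outer epidermis, and Cma1 and Cpa3, which encode a chymase and a carboxypeptidase stored in mast cell granules. The windows are those of RefSeq on GRCm38.p6, from 250 bases before to 50 bases after the gene's start, written 5′ to 3′ on the strand of the gene. Capitals mark matches on either strand to any of 3 motifs. The first is TGANTCA, the motif of AP-1 factors. The second is the E-box CANNTG, bound by Twist and related basic helix-loop-helix factors. The third is AGATAA, a motif of GATA factors. No matches overlap.
Lor, chr3:92083093-92083392, minus strand: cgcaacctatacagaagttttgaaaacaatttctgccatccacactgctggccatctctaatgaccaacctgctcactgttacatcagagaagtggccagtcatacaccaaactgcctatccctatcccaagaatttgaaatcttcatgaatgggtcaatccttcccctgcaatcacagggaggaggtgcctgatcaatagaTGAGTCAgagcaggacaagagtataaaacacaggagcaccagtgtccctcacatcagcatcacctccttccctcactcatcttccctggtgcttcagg
Flg, chr3:93273296-93273595, plus strand: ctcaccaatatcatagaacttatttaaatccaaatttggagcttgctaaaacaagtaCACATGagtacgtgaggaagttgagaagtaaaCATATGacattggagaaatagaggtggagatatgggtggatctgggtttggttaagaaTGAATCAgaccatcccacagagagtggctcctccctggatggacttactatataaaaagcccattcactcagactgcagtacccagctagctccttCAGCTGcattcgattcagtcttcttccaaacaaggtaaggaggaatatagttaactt
Cma1, chr14:55944626-55944925, minus strand: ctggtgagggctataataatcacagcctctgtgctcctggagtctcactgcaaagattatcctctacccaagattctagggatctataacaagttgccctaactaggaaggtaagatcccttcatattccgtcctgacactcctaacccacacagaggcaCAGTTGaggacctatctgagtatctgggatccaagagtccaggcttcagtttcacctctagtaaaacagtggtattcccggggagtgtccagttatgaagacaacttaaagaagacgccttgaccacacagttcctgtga
Cpa3, chr3:20242132-20242431, minus strand: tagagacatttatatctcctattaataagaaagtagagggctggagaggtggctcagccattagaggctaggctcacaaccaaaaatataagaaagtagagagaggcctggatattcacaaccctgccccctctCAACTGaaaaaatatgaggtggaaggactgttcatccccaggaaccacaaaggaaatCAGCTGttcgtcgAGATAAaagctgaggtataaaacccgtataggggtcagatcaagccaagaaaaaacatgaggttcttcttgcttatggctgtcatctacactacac
The window of Lor holds 1 TGANTCA and that of Flg holds 1 TGANTCA and 3 CANNTG. The window of Cma1 holds 1 CANNTG and that of Cpa3 holds 2 CANNTG and 1 AGATAA. Over 32851 windows of 300 bases in the same table, 72.3% hold CANNTG, 7.8% TGANTCA and 11.2% AGATAA, so the E-box match by itself marks few promoters apart. A match is a description of letters, not evidence of binding.

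Against other spots of the same section, genes with at least 20 expected UMIs in each sum were compared, and a gene 2-fold apart or more is counted as higher or lower. At E16.5 486 of 10558 genes were higher in mesenchyme spots (4.60%) and 1464 lower (13.9%). At E13.5 393 of 10774 were higher (3.65%) and 1399 lower (13%). The median log2 ratio over all these genes was -0.05 at E16.5 and 0.07 at E13.5. In 791 of the lower genes at E16.5 and 857 at E13.5, the sum over mesenchyme spots had under 20 UMIs. No higher gene had under 20 UMIs in the sum over other spots. Of 9890 genes compared at both stages, 399 were higher at E16.5 and 310 at E13.5, and 125 were higher at both, which is 31.3% of the E16.5 genes and 40.3% of the E13.5 genes. Since measured values of the same spots chose them, these ratios describe the chosen spots and are no test of them. In a spot, more cells of a type and more RNA per cell cannot be told apart.

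Genes higher at both stages included several of dermis and of the epithelium above it. Cxcl14, a chemokine of skin and of mesenchyme under epithelia (ENSMUSG00000021508, chr13:56288643-56296811), had 90.9 CPM in mesenchyme spots and 7.84 CPM in other spots at E16.5 (11.6-fold, lower 95% bound 9.88), and 381 against 30.9 CPM at E13.5 (12.3-fold, 95% interval 11.4 to 13.3). It was found in 56 of the 100 mesenchyme spots and 16.8% of other spots at E16.5, and in 57 and 23.1% at E13.5, so many mesenchyme spots had no UMI of it. Egfl6, a secreted matrix protein of skin (chrX:166523007-166585716), had 149.6 against 17.5 CPM at E16.5 (8.53-fold, 7.56 to 9.60) and 111 against 23.1 CPM at E13.5 (4.81-fold, 4.22 to 5.46). Pth1r, the receptor of parathyroid hormone and its related peptide (chr9:110722085-110747145), had 285 against 71.5 CPM at E16.5 (3.99-fold, 3.67 to 4.32) and 246 against 68.0 CPM at E13.5 (3.62-fold, 3.33 to 3.94). Unlike Cxcl14, Pth1r was found in 99 of the 100 mesenchyme spots at each stage. Neither gene peaked in the mesenchyme spots: the 100 epidermis-rich spots had 132 CPM of Cxcl14 at E16.5 and 664 CPM at E13.5, and the bone-rich spots had 858 and 296 CPM of Pth1r. Krt14 and Krt5, keratins of the basal layer of epidermis, were 14.1-fold and 10.3-fold higher at E16.5 (345 against 24.5 CPM and 347 against 33.6 CPM) and 5.86-fold and 4.11-fold higher at E13.5 (79.6 against 13.6 CPM and 74.6 against 18.1 CPM).

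Further genes led at both stages. Aspn, a small leucine-rich matrix proteoglycan (chr13:49544443-49567565), had 678 against 203 CPM at E16.5 (3.34-fold) and 101 against 31.9 CPM at E13.5 (3.17-fold). Sfrp2, a secreted modulator of Wnt signals, had 193 against 67.8 CPM at E16.5 (2.85-fold, 2.58 to 3.14) and 601 against 183 CPM at E13.5 (3.28-fold, 3.10 to 3.46). Neither Aspn nor Sfrp2 was highest in the mesenchyme spots at both stages. The bone-rich spots had 165 CPM of Aspn at E13.5, and the smooth-muscle-rich spots had 233 CPM of Sfrp2 at E16.5. Il11ra1, a receptor of interleukin 11, had 211 against 72.1 CPM (2.93-fold) and 280.2 against 89.3 CPM (3.14-fold). Tmem132c, Lrrc17, Tspan11, Megf6, Apcdd1 (an inhibitor of Wnt signals), Fosl2 (an AP-1 subunit) and Sfn (an epithelial 14-3-3 protein) lay between 3.43-fold and 5.27-fold at E16.5 and between 2.98-fold and 4.46-fold at E13.5. When the score used Prrx1 and Prrx2 alone, Tmem132c and Apcdd1 were lower at E13.5 (log2 ratios -0.20 and -1.17). The lowest genes at both stages were of heart and nervous tissue. Myl7, an atrial myosin light chain, had 25 against 842 CPM at E16.5 and 25.3 against 471 CPM at E13.5, and Fabp7, a lipid carrier of neural progenitors, had 55.5 against 555 CPM and 46.8 against 895 CPM.

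**Figure D2:**
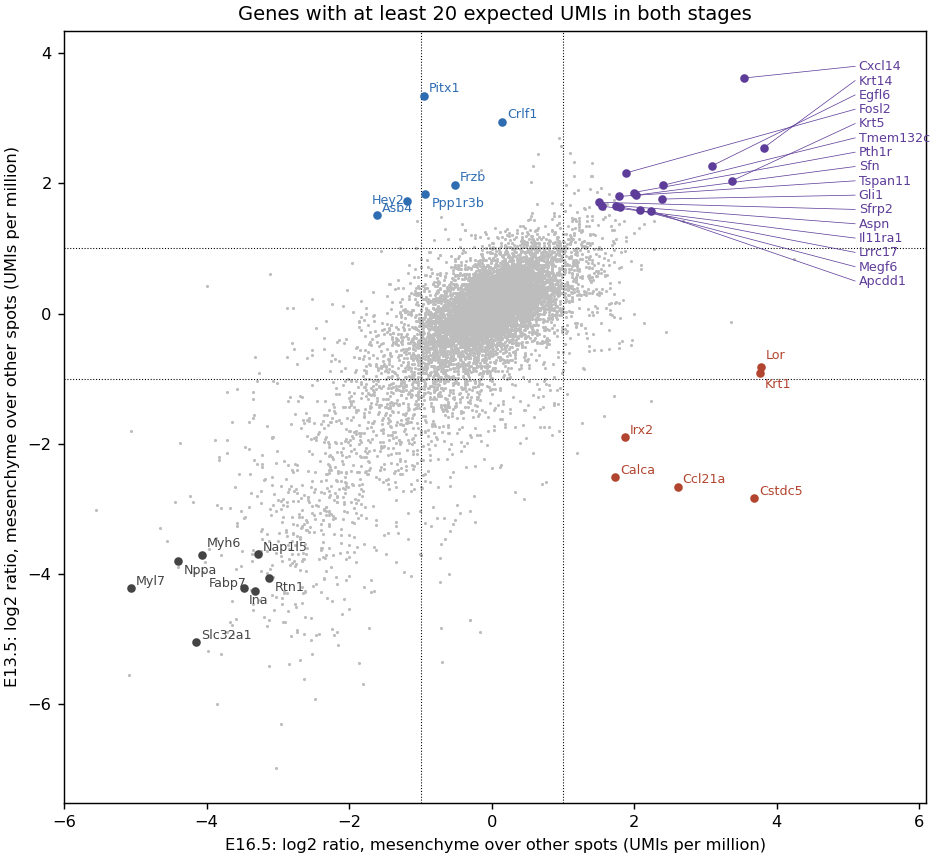
Each point is a gene with at least 20 expected UMIs in all 4 sums, at the log2 ratio of its level in mesenchyme over other spots at E16.5 (horizontal axis) and E13.5 (vertical axis), and dotted lines mark 2-fold. Purple genes lead at both stages (Cxcl14, 11.6-fold and 12.3-fold), red genes are those with the largest ratio at E16.5 relative to E13.5 (Lor), blue genes the reverse (Pitx1), and dark grey genes are the lowest at both (Myl7).

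Components of Hedgehog signalling were the pathway genes most often higher at both stages. At E16.5 7 of 8 compared genes of the list were at least 2-fold higher and none lower (median log2 ratio 1.13), and at E13.5 6 of 9 (median 1.02). Gli1, a transcription factor gene that is itself a target of the pathway (chr10:127329882-127341579), had 55.5 CPM in mesenchyme spots and 10.6 CPM in other spots at E16.5 (5.25-fold, 4.31 to 6.33), and 72.5 against 21.4 CPM at E13.5 (3.40-fold, 2.89 to 3.96). Ptch1, the receptor and another target, had 88.7 against 32.1 CPM at E16.5 (2.76-fold, 2.38 to 3.19) and 89.5 against 60.5 CPM at E13.5 (1.48-fold). Gas1, a co-receptor, had 218 against 85.9 CPM at E16.5 (2.53-fold) and 255 against 95.1 CPM at E13.5 (2.69-fold). The ligand gene Shh was scarce, with 11 UMIs at E16.5 (5.0 against 3.28 CPM) and 10 UMIs at E13.5 (4.15 against 5.56 CPM), so its difference was not detectable at this depth. Gli1 was not particular to these spots: the 100 epidermis-rich spots had 57.0 CPM at E16.5, and at E13.5 the bone-rich spots had 77.8 CPM.

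Wnt genes differed more between the stages in which of them were higher. At E16.5 4 of 10 compared genes were higher and none lower (median 0.81), and at E13.5 8 of 14 and none lower (median 1.12). Wnt5a, a ligand of the planar polarity branch that drives outgrowth of limb and face, had 42.3 against 21.5 CPM at E16.5 (1.97-fold) and 243 against 40.9 CPM at E13.5 (5.95-fold, 5.45 to 6.49). Lef1, a transcription factor of the pathway, had 14.1 against 9.0 CPM at E16.5 (1.57-fold) and 67.6 against 12.4 CPM at E13.5 (5.45-fold). Frzb, a secreted inhibitor, had 10.9 against 15.6 CPM at E16.5 (0.698-fold) and 119.8 against 30.4 CPM at E13.5 (3.95-fold). Wif1, another secreted inhibitor, stood out at E16.5 instead, with 113 against 17.6 CPM (6.40-fold, 5.58 to 7.31), and was 2.67-fold higher at E13.5 (36.5 against 13.7 CPM). Ror2, a receptor of Wnt5a, and the feedback inhibitor gene Nkd1 were at least 2-fold higher at both stages (2.80-fold and 2.56-fold at E16.5, 2.56-fold and 2.12-fold at E13.5).

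Lgr5, the R-spondin receptor gene that the study is named for, was in the same list but under the limit of expected UMIs. It had 14.1 CPM in mesenchyme spots (31 UMIs) and 3.51 CPM in other spots at E16.5 (4.01-fold, 2.69 to 5.80), and 19.1 CPM (46 UMIs) and 4.89 CPM at E13.5 (3.90-fold, 2.81 to 5.28). It was found in 25 of the 100 mesenchyme spots and 8.97% of other spots at E16.5, and in 21 and 11.2% at E13.5. At E16.5 spots 1 grid step away from the mesenchyme spots had 10.3 CPM of Lgr5, and spots 4 or more steps away had 2.55 CPM. At E13.5 the same positions had 24.2 and 3.39 CPM.

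Among receptors of other pathways, Pdgfra had 137 against 55.0 CPM at E16.5 (2.50-fold, 2.22 to 2.80) and 225 against 87.9 CPM at E13.5 (2.56-fold, 2.34 to 2.79), and Pdgfrb was 2.24-fold and 2.37-fold higher. In the PDGF and IGF list 3 of 12 genes were higher at E16.5 and 4 of 12 at E13.5, and none lower (medians 0.71 and 0.41). The FGF receptors Fgfr1 (2.33-fold and 2.59-fold) and Fgfr2 (2.46-fold and 2.16-fold) were also higher at both stages. The FGF list as a whole was not: 2 of 8 compared genes were higher at E16.5 (median 0.29). At E13.5 2 of 8 were higher and 1 lower (median 0.10). Cyp26b1, an enzyme that degrades retinoic acid, had 76.8 against 17.5 CPM at E16.5 (4.40-fold) and 102 against 39.5 CPM at E13.5 (2.58-fold). In the retinoic acid list 2 of 9 compared genes were higher at each stage and none lower (medians 0.57 and 0.34). No gene of the BMP list reached 2-fold at either stage (0 of 11 and 0 of 12), where 4.60% and 3.65% of all genes were higher. Its medians were 0.48 and 0.44, beside -0.05 and 0.07 over all genes. In the TGF-beta list 7 of 12 genes were higher at E16.5 (median 1.12) and 1 of 11 at E13.5 (median 0.30). Tgfb3, a ligand, was 2.60-fold higher at E16.5 (93.7 against 36.1 CPM) and 1.85-fold at E13.5, while Tgfb2 was 1.43-fold higher at E16.5 and 2.33-fold at E13.5 (114 against 48.8 CPM).

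**Figure D3:**
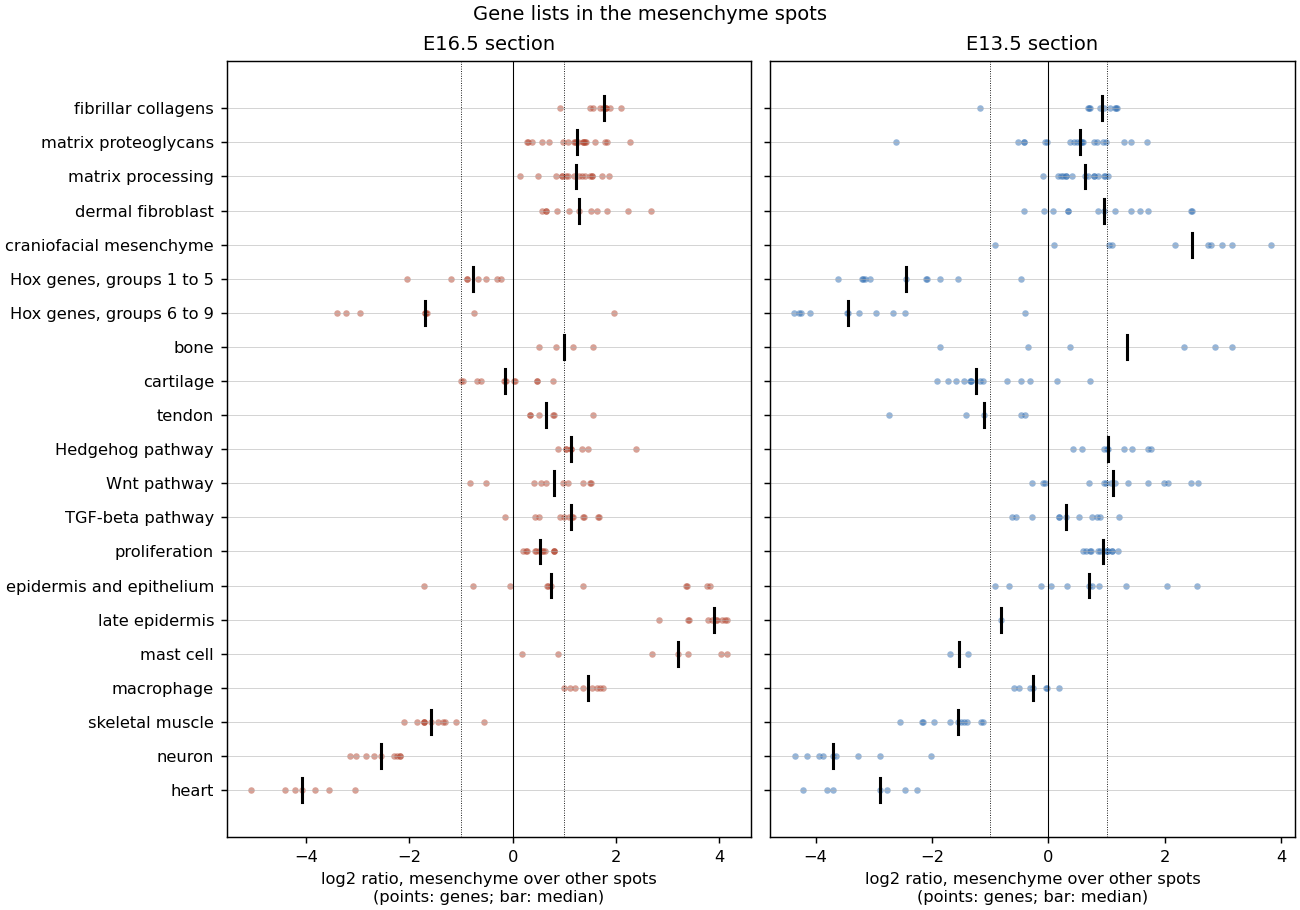
Each point is a gene of a list with at least 20 expected UMIs, at its log2 ratio of level in mesenchyme over other spots, for E16.5 (left) and E13.5 (right). Black bars are list medians and dotted lines mark 2-fold. Collagens (median 1.76 and 0.91) and Hedgehog genes (1.13 and 1.02) lie to the right at both stages, craniofacial genes only have points at E13.5 (2.47), and late epidermis (3.90), mast cell (3.20) and macrophage (1.45) genes lie to the right at E16.5.

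Matrix genes set the E16.5 mesenchyme spots apart from other spots by more than those at E13.5. Of 10 fibrillar collagen and related genes, 9 were at least 2-fold higher at E16.5 (median log2 ratio 1.76) and 4 were higher and 1 lower at E13.5 (median 0.91). Of 20 matrix proteoglycan and matricellular genes, 14 were higher at E16.5 (median 1.24), against 3 higher and 1 lower at E13.5 (median 0.55). Of genes that process matrix, 11 of 16 were higher at E16.5 and 1 of 15 at E13.5. Col1a1, the main chain of type I collagen, had 9544 CPM in mesenchyme spots and 2768 CPM in other spots at E16.5 (3.45-fold, 3.40 to 3.50), and 1240.2 against 766 CPM at E13.5 (1.62-fold, 1.56 to 1.68). Over single mesenchyme spots it ran from 16.4 through a median of 82.7 to 463 UMIs per 10000 at E16.5, and from 3.02 through 9.84 to 53.3 at E13.5, so the ranges overlap, with the median of each stage outside the range of the other. Bone-rich spots had more of it still, 26339 CPM at E16.5 and 2001 CPM at E13.5.

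Single proteoglycan genes differed between the stages in their ratios, unlike Aspn above. Dcn, decorin, had 949 against 277 CPM at E16.5 (3.43-fold, 3.28 to 3.58) and 117 against 168 CPM at E13.5 (0.694-fold, 0.615 to 0.781). Lum, lumican, had 1127 against 232 CPM at E16.5 (4.85-fold) and 354 against 178 CPM at E13.5 (1.99-fold). Postn, periostin, went the other way in its ratio, 1.96-fold at E16.5 (1485 against 758 CPM) and 3.22-fold at E13.5 (733 against 228 CPM). Sparc, a collagen-binding matricellular protein, was 2.67-fold higher at E16.5 (4840.2 against 1812 CPM) and 0.977-fold at E13.5 (715 against 732 CPM). Fbln2 and Vcan, of the early provisional matrix, were at least 2-fold higher at both stages (2.27-fold and 2.34-fold at E16.5, 2.68-fold and 2.44-fold at E13.5). Lox, which cross-links collagen, was 3.29-fold higher at E16.5 (452 against 138 CPM) and 1.23-fold at E13.5.

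Transcription factor genes of mesenchyme other than the 4 of the score held both higher and lower members. At E16.5 5 of 21 were higher and 3 lower (median 0.58), and at E13.5 8 of 26 were higher and 3 lower (median 0.52); the numbers lower are near the shares over all genes (13.9% and 13%). Snai1, which represses epithelial genes, had 33.2 against 10.6 CPM at E16.5 (3.13-fold) and 56.8 against 16 CPM at E13.5 (3.56-fold). Osr1, a factor of irregular connective tissue, had 47.7 against 23.3 CPM at E16.5 (2.05-fold) and 209 against 53.1 CPM at E13.5 (3.94-fold). Tcf21, a factor of visceral mesenchyme, was lower at both stages (0.127-fold and 0.0966-fold).

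The E13.5 mesenchyme spots carried genes of facial and palatal mesenchyme. At E16.5 the 19 genes of the craniofacial list summed to 76.8 CPM in mesenchyme spots and 58.9 CPM in other spots, and none had 20 expected UMIs. At E13.5 they summed to 971 and 193 CPM, and of 10 compared genes 8 were at least 2-fold higher and none lower (median log2 ratio 2.47, beside 0.07 over all genes). In this and the other lists, the limit of expected UMIs pools mesenchyme and other spots. A scarce gene could thus be compared through its mesenchyme UMIs, as Alx1 was (120 UMIs, with 7.38 CPM in other spots). The counts and medians are therefore a description and no test. Lhx8, a LIM homeobox gene of the jaw and palate (chr3:154306288-154330560), had 6.37 against 3.28 CPM at E16.5 and 122 against 8.66 CPM at E13.5 (14.1-fold, 12.3 to 16.1). Msx1, a homeobox gene needed for tooth and palate (chr5:37820491-37824585), had 4.55 against 5.07 CPM at E16.5 and 162 against 20.6 CPM at E13.5 (7.90-fold, 7.07 to 8.81). Pitx1, a gene of the lower jaw and hindlimb (chr13:55825044-55836190), had 5.91 against 11.4 CPM at E16.5 (0.519-fold) and 162 against 15.9 CPM at E13.5 (10.2-fold, 9.08 to 11.4). The limb mesenchyme list at E13.5 also had 3 of 4 compared genes higher, with 1 lower (262 against 85.2 CPM summed).

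Some other regional factors were also higher at E13.5, though related lists were mixed. The palate and jaw list, put together after its values were seen, had 3 of 6 genes higher and 1 lower (median log2 ratio 1.47). The visceral mesenchyme list had 4 of 8 compared genes higher and 3 lower (median 1.48). Barx1, of the molar region and stomach, was 6.98-fold higher (157 against 22.5 CPM), and Sim2 7.0-fold (73.0 against 10.4 CPM). Alx1, of the frontonasal region, was 6.74-fold higher (49.7 against 7.38 CPM), and Foxf2, of the palate, 3.95-fold (105 against 26.6 CPM). Runx2, the master regulator of bone, had 56.0 against 7.65 CPM at E13.5 (7.32-fold), and Alpl, a phosphatase of mineralising cells, was 5.04-fold higher. The bone list at E13.5 had 3 of 6 compared genes higher and 1 lower (median 1.35). Of its 11 genes, 2 had no UMI in the mesenchyme spots. Levels of Lhx8 and Msx1 extended past the mesenchyme spots. At E13.5 the bone-rich spots, 19 of which are mesenchyme spots, had 83.9 CPM of Lhx8 and 259 CPM of Msx1. That is more Msx1 than in the mesenchyme spots, while cartilage-rich spots had 4.94 and 7.41 CPM.

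Hox genes of groups 1 to 9 were low in the mesenchyme spots, by list medians more so at E13.5. At E16.5 2 of 8 compared genes of groups 1 to 5 were at least 2-fold lower (median log2 ratio -0.77) and 7 of 9 of groups 6 to 9 (median -1.69). At E13.5 10 of 11 genes of groups 1 to 5 were lower (median -2.45, 76.7 against 397 CPM summed), 10 of 11 of groups 6 to 9 (median -3.44, 41.9 against 430.0 CPM), and 3 of 3 of groups 10 to 13 (median -4.43). Groups 10 to 13 were scarce, at 7.28 against 1.06 CPM summed at E16.5, where no gene had 20 expected UMIs, and 2.49 against 29.4 CPM at E13.5. Hoxa5 had 13.6 against 56.1 CPM at E16.5 and 14.9 against 81.7 CPM at E13.5. Among genes with 20 expected UMIs the single higher gene in these lists was Hoxd8 at E16.5, with 54.6 against 13.9 CPM (3.92-fold, 3.23 to 4.73), and its neighbour Hoxd9, under the limit of expected UMIs, had 18.6 against 2.05 CPM (9.11-fold). Both were singled out after their values were seen.

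The E13.5 patches differed among themselves in which of these factors they held. Patch 1 (20 spots, 9 of them epidermis-rich) had 308 CPM of Pitx1 (262 to 359.9), 858 CPM of Cxcl14 (779 to 942) and 411 CPM of Osr1, with 1.95 CPM of Barx1. Patch 2 (20 spots, none epidermis-rich) had 609 CPM of Barx1 (539.7 to 684), found in all 20 spots, with 313 CPM of Sim2 (264 to 368) and 1669 CPM of Sfrp2, but 2.16 CPM each of Msx1 and Cxcl14. Patch 3 (9 spots) had the most Msx1, 616 CPM (515 to 731), with 1129 CPM of Cxcl14. Patches 1 and 2, which have equal numbers of spots, therefore had nearly complementary levels of Barx1 and Cxcl14.

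The smaller patches added further combinations. Patch 4 (9 spots, 5 of them bone-rich) had 788 CPM of Pitx1 (675 to 913), patch 6 (6 spots) had 506 CPM of Foxf2 (392 to 643) and no UMI of Msx1, and patch 8 (5 spots, all bone-rich) had 392 CPM of Msx1 (296 to 509) and no UMI of Barx1. Patch 5 (6 spots, 4 bone-rich) had 235 CPM of Alx1. Lhx8 ran from 15.1 CPM in patch 6 to 183 CPM in patch 5. Each patch is a single place in a single section, so these intervals do not speak for other embryos.

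**Figure D4:**
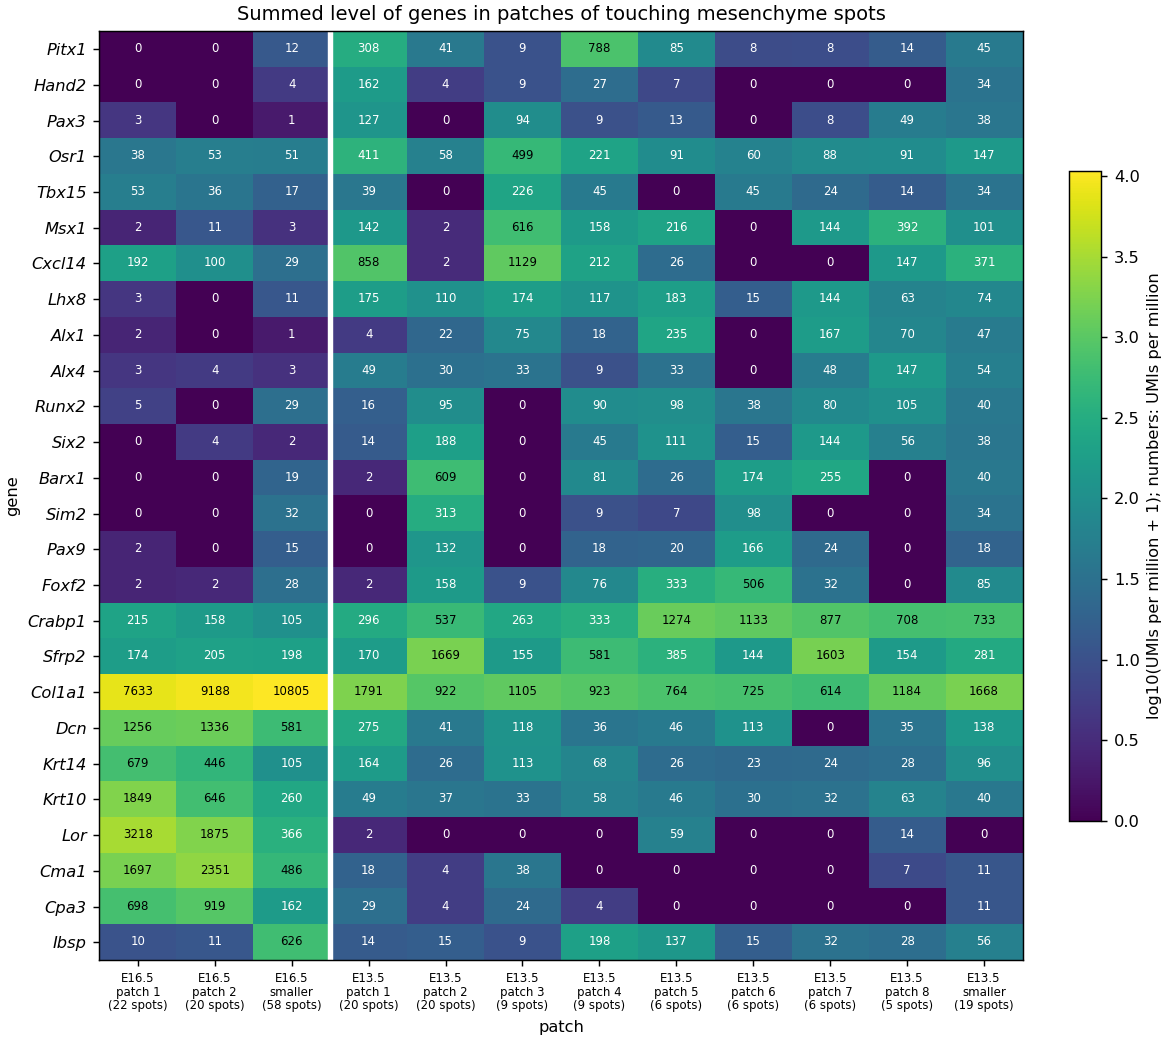
Columns are patches of touching mesenchyme spots, E16.5 left of the white line and E13.5 right of it, with patches under 5 spots pooled as smaller. Colour gives log10(CPM + 1) and the printed numbers give CPM. Lor and Cma1 are high in both E16.5 patches (1697 and 2351 CPM of Cma1), while Barx1 reaches 609 CPM in E13.5 patch 2 and Msx1 616 CPM in E13.5 patch 3.

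Genes of the outer epidermis were high in the E16.5 mesenchyme spots. A list of 10 late epidermis genes, put together after their values were seen, had all 10 at least 2-fold higher (median log2 ratio 3.90) and summed to 4307 CPM in mesenchyme spots and 323 CPM in other spots. Lor had 1513 against 110.3 CPM at E16.5 (13.7-fold, 13.2 to 14.3) and 4.97 against 8.77 CPM at E13.5. It ran from 0 through a median of 3.0 to 179 UMIs per 10000 over single mesenchyme spots and was found in 75 of the 100. Flg had 354 against 21.2 CPM at E16.5 (16.7-fold), and Krt1, a keratin of the layers above the basal one, had 884 against 65.3 CPM. The 42 mesenchyme spots that were also epidermis-rich had 2963 CPM of Lor, and the other 58 had 181 CPM.

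Mast cell genes were high in the same section. Of a list of 9 genes, also put together after their values were seen, 5 of 7 compared were higher at E16.5 and none lower (median 3.20, 2349.6 against 203 CPM summed), and at E13.5 the sums were 37.7 and 47.1 CPM. Cma1 had 1268 against 77.7 CPM at E16.5 (16.3-fold, 15.6 to 17.1) and was found in 71 of the 100 mesenchyme spots and 35.3% of other spots. Cpa3 had 492 against 28.0 CPM (17.6-fold, 16.4 to 18.9). The tryptase gene Tpsb2 (165 against 25.6 CPM, 6.44-fold) and Hdc, which makes histamine (264 against 28.7 CPM, 9.19-fold), were also higher. Kit, the stem cell factor receptor of mast cells and other cells, was not (1.14-fold), and Fcer1a had no UMI in these spots. The epidermis-rich mesenchyme spots had 2162 CPM of Cma1 and the other 58 had 447 CPM, which is still above the 77.7 CPM of spots outside the choice.

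All 8 compared macrophage genes were at least 2-fold higher at E16.5 (median 1.45, 1045 against 394 CPM summed), from C1qa (2.0-fold) to Mrc1, a receptor of resident tissue macrophages (123 against 36.7 CPM, 3.34-fold). At E13.5 none of 7 was 2-fold apart in either direction (median -0.26, 201 against 232 CPM). Genes of some other cell types were lower: 10 of 11 skeletal muscle genes at E16.5 and 11 of 11 at E13.5, and 9 of 9 neuron genes and 7 of 7 heart genes at each stage. For other types fewer were lower: 0 of 12 cartilage genes at E16.5 and 9 of 14 at E13.5, and 0 of 6 and 3 of 5 tendon genes. Of fat genes 1 of 8 and 1 of 2 were lower, and of smooth muscle genes 5 of 10 at each stage. No endothelial gene of 9 was 2-fold apart at E16.5 (median 0.34), and 1 of 9 was lower at E13.5 (median 0.02). Over all genes 13.9% were lower at E16.5 and 13% at E13.5. The 1 lower gene in a list of fat or endothelium therefore does not set that type apart.

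The genes of epidermis moved with several of the results above. Summed epidermis markers stood at 2365 against 200.2 CPM at E16.5 and 203 against 89.1 CPM at E13.5. Without the mesenchyme spots that were also epidermis-rich, a comparison added after the data were seen, the log2 ratio of Lor at E16.5 was 0.72 (3.78 with them), that of Krt1 0.51 (3.76) and that of Flg 0.64 (4.06). Some genes that led at both stages were then under 2-fold at a stage: Krt5 had 0.80 at E13.5 (2.04), Apcdd1 0.84 at E13.5 (1.58) and Sfn 0.71 at E16.5 (2.03). Of 126 values of named genes at least 2-fold apart, 19 were under 2-fold. Krt14 had 1.44 at E16.5 (3.82) and 1.43 at E13.5 (2.55), and Cxcl14 had 1.64 at E16.5 (3.54) and 3.25 at E13.5 (3.62). Gli1 stayed at 1.72 (2.39) and 1.71 (1.76), Egfl6 at 2.67 (3.09) and 2.29 (2.27), and Aspn was higher at E16.5, at 2.36 (1.74). The list medians at E16.5 were 1.85 for fibrillar collagens (1.76), 1.13 for Hedgehog (1.13), 1.13 for macrophage (1.45) and 0.09 for proliferation (0.53).

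The 6 E16.5 mesenchyme spots that were also bone-rich weighed on bone genes. They had 4472 CPM of Ibsp, bone sialoprotein, and no UMI of Cma1, whereas all mesenchyme spots had 309 CPM of Ibsp and other spots 105 CPM (2.94-fold). The 2 large E16.5 patches, in which 21 of 22 and 14 of 20 spots were epidermis-rich, had 1697 and 2351 CPM of Cma1 and 7633 and 9188 CPM of Col1a1. The 58 spots outside them had 486 CPM of Cma1 and 10805 CPM of Col1a1, so Col1a1 was not concentrated in the large patches.

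Levels around the mesenchyme spots showed how far each pattern reached. By steps of 0, 1, 2, 3 and 4 or more on the grid, Cxcl14 had 90.9, 30.1, 9.08, 7.79 and 5.99 CPM at E16.5 and 381, 284, 145, 33.8 and 11.3 CPM at E13.5. Gli1 at E16.5 had 55.5 CPM in the mesenchyme spots and 17.6 CPM a single step away, whereas at E13.5 it had 72.5, 56.4, 50.4, 42.3 and 17.2 CPM. Lor at E16.5 had 1513, 1177 and 135 CPM at 0, 1 and 2 steps. Cma1 at E16.5 had 1268, 406, 193, 84.5 and 40.6 CPM. Lhx8 at E13.5 had 122, 71.6, 37.2, 22.2 and 3.26 CPM. Col1a1 was lower at each further step at E16.5 (9544, 7700.4, 5337, 4470.5 and 1973 CPM), and at E13.5 it was highest 3 steps away (1435 CPM, against 1240.2 CPM in the mesenchyme spots themselves).

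**Figure D5:**
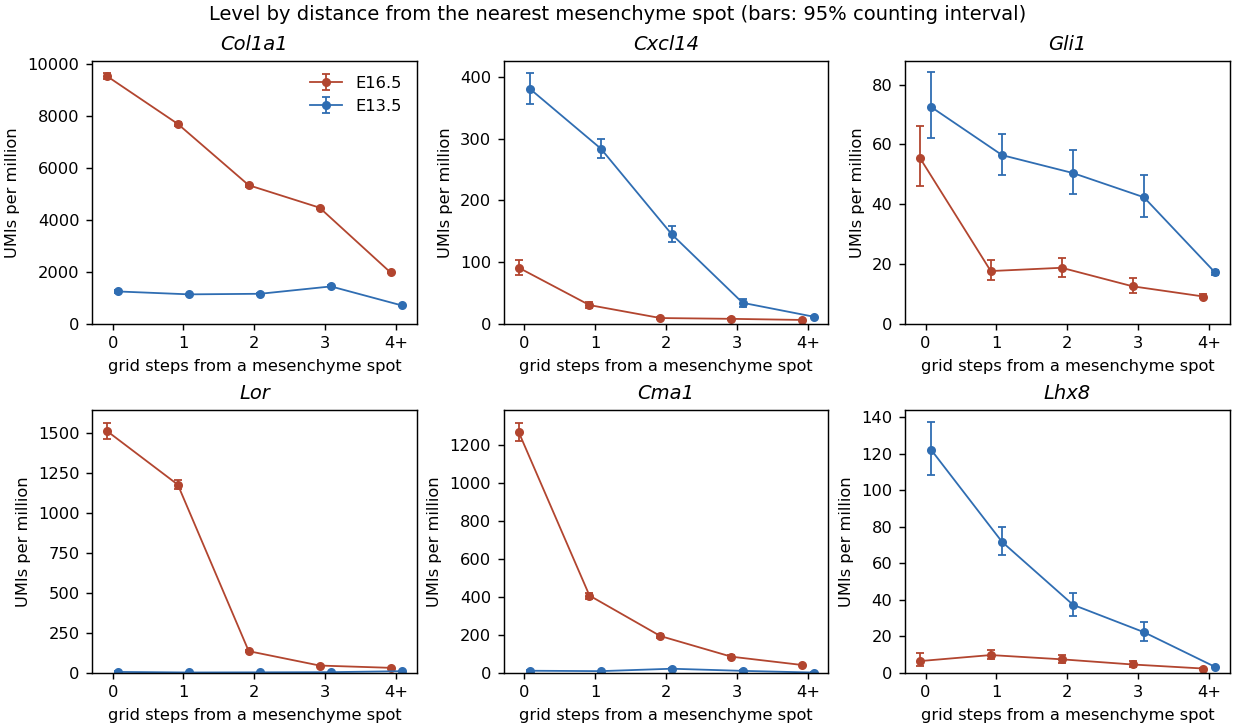
Each panel gives the summed level (CPM, linear axis) of a gene at 0, 1, 2, 3 and 4 or more grid steps from the nearest mesenchyme spot, E16.5 in red and E13.5 in blue, with 95% counting intervals. Lor stays high for 1 step at E16.5 (1513 and 1177 CPM), Cxcl14 and Lhx8 decline over several steps at E13.5, and Col1a1 at E13.5 has no peak in the mesenchyme spots.

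Between the stages, 1004 of 10257 genes were at least 2-fold higher in E16.5 than in E13.5 mesenchyme spots (9.79%) and 1460 lower (14.2%), with a median log2 ratio of -0.30 over all genes (-0.16 in other spots). With TMM scaling factors, which moved the median by 0.22, the split was 1275 higher and 852 lower, and with median-of-ratios factors 1243 and 882, so the share of higher genes depends on the scaling. The sign of no gene given below turned with the scaling. Of the lists given below, fetal growth did: its median of -0.16 is smaller than the moves of 0.22 (TMM) and 0.20 (median-of-ratios). In 447 of the higher and 415 of the lower genes the lower sum had under 20 UMIs.

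Many matrix genes were higher at E16.5. All 10 fibrillar collagen genes were (median log2 ratio 2.10), and of the proteoglycan and matricellular genes 12 of 20 were higher and 1 lower (median 1.34), and of the matrix processing genes 8 of 16 higher and none lower (median 0.89). In other spots, where 15% of 17713 genes were at least 2-fold higher at E16.5 and 7.41% lower, the higher counts were 6 of 10 (median 1.20), 7 of 20 (median 0.71) and 2 of 16 (median 0.40). Col1a1 was 7.70-fold higher (7.41 to 8.00) and Dcn 8.11-fold (7.16 to 9.22). Dpt, dermatopontin of dermal matrix, had 347 CPM at E16.5 and 7.88 CPM at E13.5 (44.1-fold, 28.0 to 73.6), and Mfap5, a microfibril glycoprotein, had 171 and 1.66 CPM (103-fold, 40.1 to 381). Ltbp2, which binds to microfibrils, had 159 and 4.15 CPM (38.3-fold, 20.6 to 80.5). Vcan was on the other side, 0.499-fold, so near the limit that with TMM or median-of-ratios factors it is under 2-fold.

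The genes with the highest E16.5 over E13.5 ratios were those of epidermis, mast cells and fat. Lor was 304-fold higher in mesenchyme spots (174 to 589) and 12.6-fold in other spots. Flg had no UMI at E13.5 and was at least 284-fold higher when E13.5 is set at 3 counts over the group. Cma1 was 122-fold higher (82.7 to 189). Fabp4, a lipid carrier of fat cells, was 344-fold higher, yet it was no mark of the mesenchyme spots: it had 1997 CPM in them and 3619 CPM in other spots at E16.5, and was 137-fold higher at E16.5 in other spots. All 8 fat genes were higher at E16.5 in both kinds of spots (medians 4.83 and 7.56). All 8 macrophage genes were higher at E16.5 in mesenchyme spots (median 2.45) and 1 was in other spots (median 0.76).

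Genes of facial mesenchyme were lower at E16.5. Of 15 compared craniofacial genes 14 were (median log2 ratio -4.11), beside 14.2% of all genes. In other spots 18 of 19 were (median -1.79), beside 7.41% of all genes. The limit of expected UMIs pools both stages, so a gene scarce at E16.5 could be compared through its E13.5 UMIs. Msx1 had 10 UMIs at E16.5 and 392 at E13.5, Alx1 2 and 120, and Lhx8 14 and 294. The count of craniofacial genes is thus a description and no test. Msx1 was 35.7-fold lower at E16.5 (19.2 to 75.1), Pitx1 27.4-fold (15.8 to 52.0), Lhx8 19.1-fold (11.2 to 35.4) and Alx1 54.7-fold (14.8 to 457). Hmga2, a chromatin protein of early growth, was 37.1-fold lower (18.6 to 86.8), while the fetal growth list it belongs to had 4 of 12 genes lower and 1 higher (median -0.16). Cxcl14 was 4.19-fold lower (3.59 to 4.91), a log2 ratio of -2.07, which was -3.59 without the epidermis-rich mesenchyme spots. Of 19 Wnt genes 8 were lower and 2 higher (median -0.73), and in other spots 4 were lower and none higher (median -0.72).

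Cell cycle genes were closer together. Of 12 genes, none was at least 2-fold higher in mesenchyme than in other spots at E16.5 (median 0.53, 899.9 against 636 CPM summed), and 5 were at E13.5 (median 0.93, 1662 against 905 CPM). Mki67, expressed in cycling cells, had 131 against 84.7 CPM at E16.5 (1.54-fold) and 211 against 99.1 CPM at E13.5 (2.13-fold). Between stages 4 of 12 were lower at E16.5 in mesenchyme spots (median -0.93) and none in other spots (median -0.52). The Hedgehog list, in contrast, had 1 of 10 genes lower and none higher at E16.5 in mesenchyme spots (median -0.36, beside -0.30 over all genes).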

How the data were processed

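The deposited files hold, per the file headers (Space Ranger 2.0.0), counts of UMIs for 32285 genes in each spot, with grid positions; the genome is mm10 per the submitters' processing notes. The counts are whole numbers and had not been normalized. Spots over tissue with at least 500 UMIs were kept. Levels are summed UMIs per 1000000 with exact Poisson 95% intervals, shares are plain percentages, and ratios have exact conditional intervals. In list medians a gene with no UMI in a sum is set at 3 counts. Computations used Python 3.11.15, SciPy 1.17.1, pandas 2.3.3, and edgeR 4.0.16 for the scaling factors, and were checked on simulated data.

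Genes named by rule were the 16 highest and 8 lowest at both stages by interval bound, the 6 with the largest ratio of ratios in each stage, the 12 highest and 12 lowest between stages, and members of 35 fixed lists plus 3 added after their values were seen (mast cell, late epidermis, palate and jaw factors). Mitochondrial, haemoglobin and unnamed genes were passed over. The spots and lists were chosen with earlier results of these data known. Positions are RefSeq's (GRCm38.p6), matched by symbol for 26335 genes. Doublets do not apply to spots. Images and P0 sections were not used here.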

Additional observations from a re-analysis of the deposited data

Results flagged for a closer look

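Some genes and lists lay on opposite sides of the other spots at the 2 stages, so that their log2 ratios of mesenchyme over other spots had opposite signs; with 1 section a stage, the difference was not tested for any of them. Values are the E16.5 ratio minus the E13.5 ratio on the log2 scale.

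A first set of genes was higher than other spots at E16.5 and lower at E13.5. The difference was 6.52 for Cstdc5 (3.68 at E16.5 and -2.84 at E13.5), a cystatin gene with near-identical neighbours whose reads the counting may split. It was 5.27 for Ccl21a (2.61 and -2.66), a chemokine gene of lymphatic vessels that also has near-identical copies, 4.68 for Krt1 (3.76 and -0.92) and 4.60 for Lor (3.78 and -0.82). It was 4.25 for Calca (1.73 and -2.52), which encodes calcitonin and its related peptide, and 3.76 for the homeobox gene Irx2 (1.87 and -1.90). Calca and Irx2 turned sign at E16.5 without the epidermis-rich spots (-0.03 and -0.99).

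A further 6 genes were lower than other spots at E16.5 and higher at E13.5. The difference was -4.29 for Pitx1 (-0.95 at E16.5, which was -0.01 without epidermis-rich spots and 0.10 without patches of 10 or more spots, and 3.35 at E13.5), -3.11 for Asb4 (-1.61 and 1.51), -2.92 for Hey2, a Notch target (-1.19 and 1.73), and -2.78 for Ppp1r3b, a glycogen regulator (-0.94 and 1.84). The eye and face genes Mab21l1 and Mab21l2 differed by -3.72 (-3.11 and 0.61, which turned to -0.10 with Twist1 and Twist2 alone) and -2.50 (-1.55 and 0.96).

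In list medians, visceral mesenchyme differed by -2.65 (-1.17 at E16.5 and 1.48 at E13.5, which turned to -0.15 with the 200 highest spots and -0.55 with 5 expected UMIs). Tendon differed by 1.74 (0.64, which turned to -0.11 with Twist1 and Twist2 alone and -0.10 with thinned spots, and -1.10). Macrophage differed by 1.71 (1.45 and -0.26, which turned to 0.01 with the 200 highest spots and 0.07 with Twist1 and Twist2 alone).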

How the results depend on the processing

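Counts of genes 2-fold apart moved by over 1.5 times under these settings. Thinning each spot to 5000 UMIs, which left out 148 spots at E16.5 (1 of them a mesenchyme spot) and 62 at E13.5, gave 133 higher and 408 lower at E16.5, 96 and 395 at E13.5, and 435 and 614 between stages. Requiring 100 expected UMIs gave 164 and 433, 101 and 445, and 342 and 440. Requiring 5 gave 853 and 2283, 641 and 2198, and 1957 higher between stages. In these settings fewer or more genes were compared. The mean over spots gave 267 higher at E16.5 and 252 at E13.5. The 50 highest spots gave 668 higher between stages (8.59%), TMM 852 lower (8.31%) and median-of-ratios 882 lower (8.60%). Further comparisons were added after the data were seen. Without epidermis-rich mesenchyme spots 642 were higher between stages (7.93%), and without patches of 10 or more spots 941 were lower at E16.5 (12.4%). Of 1361 recomputed list medians 77 turned sign, 5 of them of medians at least 2-fold apart, and of 2430 values of named genes 62 did, 10 of them of values at least 2-fold apart. Those 5 and 10 follow. With the 50 highest spots the bone list at E16.5 had -0.93. With the 200 highest the visceral list at E13.5 had -0.15 and smooth muscle between stages -0.09. With 5 expected UMIs the visceral list had -0.55. With Prrx1 and Prrx2 alone, Calca and Irx2 at E16.5 had -0.16 and -0.08, and Tmem132c, Apcdd1 and Hey2 at E13.5 had -0.20, -1.17 and -1.0. With Twist1 and Twist2 alone, the bone list, Ccl21a and Irx2 at E13.5 had -0.01, 0.15 and 0.11, and Ppp1r3b between stages 0.02. Without epidermis-rich spots, Calca and Irx2 at E16.5 had -0.03 and -0.99. Apart from fewer or more genes compared, the cause was not tested. No paired analysis was possible because each stage has 1 section.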
